A study of Homo sapiens with 10 samples.

Results

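ATP-binding cassette (ABC) transporter genes were examined in a human chronic myeloid leukaemia (CML) cell line and in a subline of it that resists cyclophosphamide, an alkylating drug. All probe sets were taken whose platform symbol is ABC followed by a letter from A to G and a number, which gave 52 of the 12558 probe sets tested. Of these, 51 name a single gene, 32 genes in all, and 1 probe set carries the symbols of both ABCB4 and ABCB1 and was given to neither. The gene table of assembly GRCh38.p14 lists 45 protein-coding genes with such symbols, and those without a probe set here were not analysed.

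The groups were 5 oligonucleotide arrays of the resistant subline and 5 of the sensitive line, each hybridised with biotin-labelled cRNA from cells grown in culture medium. The labels name neither the line nor the way resistance was raised, and do not say whether the subline is 1 clone, whether drug was present at harvest or whether the 5 samples of a group were separate cultures. All p-values therefore measure only the spread among these arrays, which may be of technical origin. Signals are MAS5 values, the brightness of a probe set on a linear scale, and the design asks how the lines differ.

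ABC transporters use the energy of ATP to move substrates across membranes, and a functional unit joins a pair of membrane domains to a pair of nucleotide-binding domains, either in 1 protein or in a dimer of smaller proteins. Members of subfamilies B, C and G pump drugs and their conjugates out of cells, which makes them the classical genes of multidrug resistance. Subfamily A moves lipids, subfamily D carries fatty acids into peroxisomes, and the proteins of subfamilies E and F have no membrane domain and act in translation.

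The mean share of probe sets above background was alike in the groups. A background limit was set on each array as the 95th percentile of 32 control probe sets that have no human target, and it was passed by 54.9% ± 4.35 of probe sets in resistant and 55.1% ± 2.6 in sensitive arrays (SD, n = 5 each). The limit lay between 319.7 and 739.8 in resistant arrays and between 360.8 and 640.0 in sensitive arrays. The leukocyte marker PTPRC and both partner genes of the fusion, BCR and ABL1, were above the limit on all 10 arrays, whereas the granulocyte gene MPO was above it on 2 resistant arrays and 1 sensitive array. The myeloid gene CSF3R fell to 173 ± 83 in resistant arrays, none above the limit, against 772 ± 298 in sensitive arrays (adjusted p = 0.00189, limma), and CEBPA fell to 1977 ± 820 in resistant arrays, against 5056 ± 995 in sensitive arrays (adjusted p = 0.0283). The part of such differentiation genes in the results below was not tested. Markers of T cells, B cells, epithelium and fibroblasts numbered 12, and none of them was above the limit on all arrays or called. Some were above it on part of the arrays, such as CD3E on 3 resistant and 3 sensitive arrays and CDH1 on 2 and 3. Of the 6 myeloid markers only 1, PTPRC, was above it on all arrays. ITGAM was above it on none, and SPI1 on 0 resistant and 5 sensitive arrays (log2 difference -1.07, adjusted p = 0.0529). This rule therefore does not tell the lineages apart.

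A difference between the lines was called in 3 of the 52 ABC probe sets. The efflux pump gene ABCG2 rose in resistant cells, and 1 probe set each of the lipid transporter gene ABCA2 and the efflux pump gene ABCC10 fell, while the classical pump gene ABCB1 stayed at background throughout. In limma, with Benjamini-Hochberg adjustment over all 12558 probe sets and a threshold of 0.05, 3 of the 52 ABC probe sets were called (5.77%), against 7.41% of all probe sets. In the upward direction 1 of 52 was called, against 4.42% of all probe sets, and in the downward direction 2 of 52, against 2.99%. At an unadjusted p under 0.05 the count was 9 of 52 (17.3%), against 17.9% of all, with 5 higher (10.2% of all were) and 4 lower (7.69% of all). The groups did not overlap in 5 of the 52 probe sets (9.62%), against 8.5% of all, with 3 higher (4.94% of all) and 2 lower (3.56% of all). These shares lie near the background, so no difference of the family as a whole is drawn from them, and the account below is of single genes.

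The median log2 difference of the 52 probe sets was 0.07, against 0.03 over all probe sets, and the median of their sizes without sign was 0.23, against 0.27. Of the 52, 30 had a positive and 22 a negative difference. Over all probe sets the split was 6690 and 5868. With arrays scaled to a common median it was 26 and 26 for ABC probe sets and 5323 and 7235 for all, and with quantile normalization 27 and 25 for ABC probe sets and 5982 and 6576 for all. Scaling to a common median moved the median of all probe sets to -0.071, from 0.029 under the scaling used here. The median SD within groups was 0.5 on the log2 scale for ABC probe sets and 0.45 for all.

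Many members were dim. The limit was passed in 3 or more arrays of a group by 22 of the 52 probe sets (42.3%), against 58.5% of all, and 23 were not above it on any of the 10 arrays. Among the probe sets that passed it in 3 or more arrays of a group, 3 of 22 ABC probe sets were called (13.6%), against 11.5% of all. At an unadjusted p under 0.05 the shares were 31.8% and 24.6% (limma). By gene, 14 of 32 had a probe set that passed it in this way and 18 had none. The plot of all log2 differences orders the members by subfamily.

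**Figure D1:**
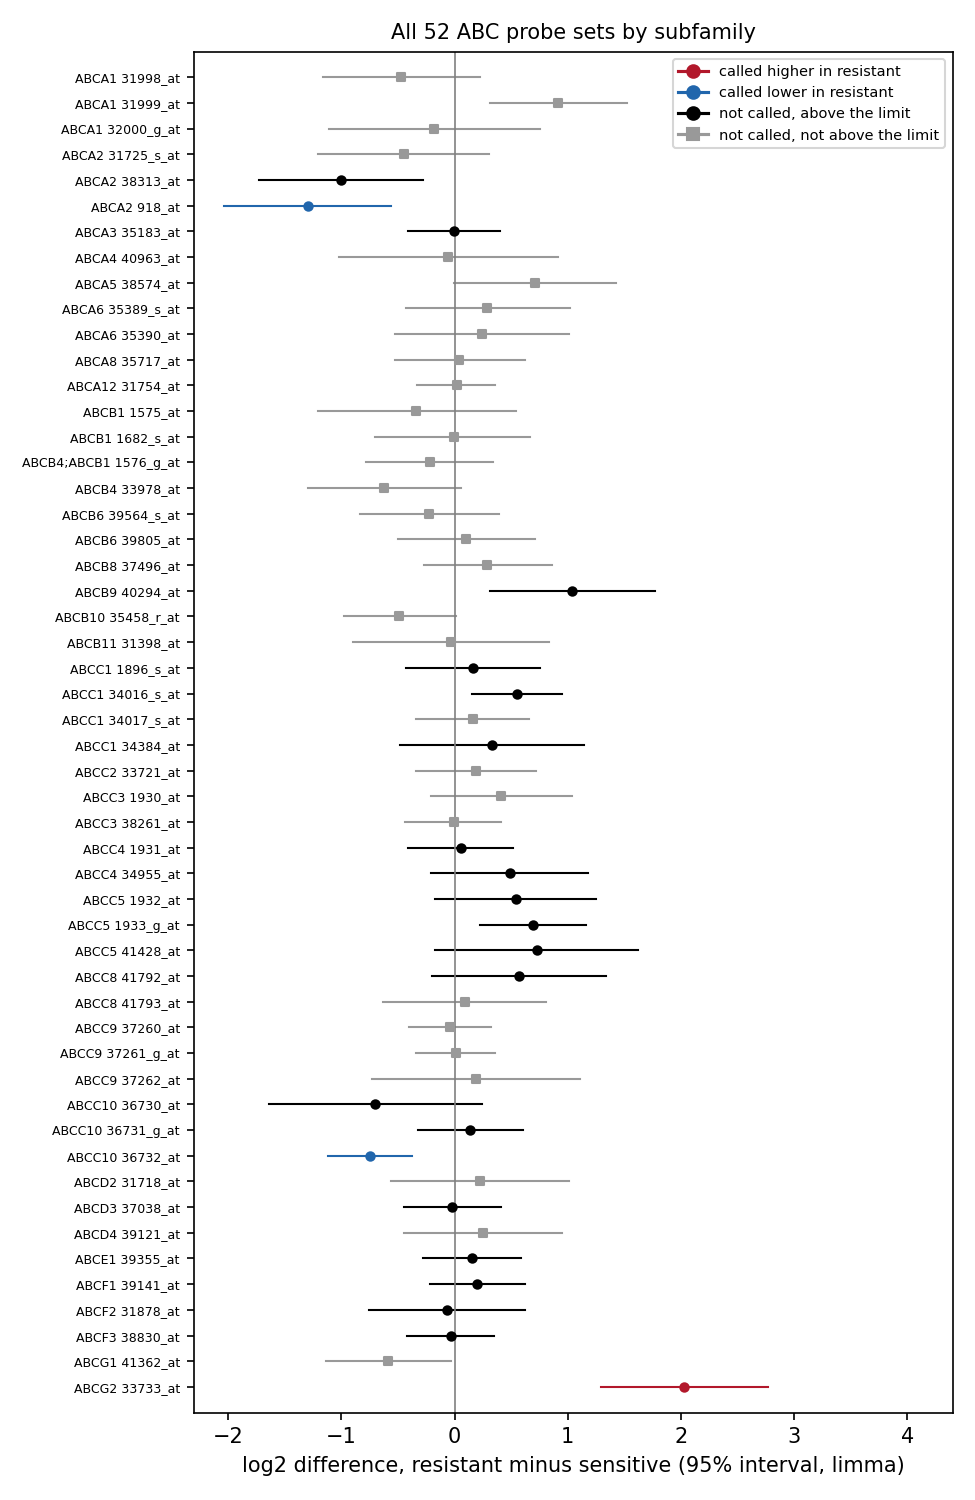
Log2 difference of resistant minus sensitive arrays (horizontal axis, points) with its 95% interval from limma (lines) for each of the 52 ABC probe sets, named by gene and probe set and ordered by subfamily; circles are probe sets that passed the limit in 3 or more arrays of a group and squares the others. ABCG2 stands alone at 2.03, and the called probe sets of ABCA2 and ABCC10 lie at -1.30 and -0.75.

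ABCG2, the breast cancer resistance protein, works as a dimer and is known as an exporter of many anticancer drugs and of porphyrins, and it marks the side population of blood stem cells. The signal of its only probe set, 33733_at, was 858.6, 1370, 1525, 1737 and 1299 in resistant arrays, against 133.2, 74.5, 628.0, 239.4 and 323.8 in sensitive arrays. Every resistant array was above the highest sensitive array and above its own limit, and no sensitive array was above its limit. The means were 1358 ± 326 in resistant and 280 ± 217 in sensitive arrays (SD, n = 5 each), and because the sensitive group is a bound only, the rise is given as at least 2.73-fold. This bound is a ratio of geometric means and makes no allowance for the spread among arrays. With any 1 array left out the bound lay between 2.53 and 3.04. In limma the log2 difference was 2.03 (SE 0.34, 95% interval 1.29 to 2.77, adjusted p = 0.0025), and the two-sided exact permutation test gave p = 0.00794, the smallest that 5 against 5 arrays allow. Every probe set whose groups do not overlap has this exact p, so it adds nothing to the separation. In these bulk samples fewer cells that express a gene and less RNA per cell cannot be told apart.

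The only other measured member of its subfamily was ABCG1, which exports cholesterol to lipoproteins. Its signal lay between 13.4 and 150 in resistant arrays and between 59.5 and 216 in sensitive arrays, under the limit throughout, and it was not called (log2 difference -0.59, adjusted p = 0.242). The genes on both sides of ABCG2 on chromosome 4 were looked up after its values had been seen. Of the 5 nearest measured genes on each side, HPGDS, a prostaglandin D synthase, rose by 1.79 on the log2 scale (adjusted p = 0.00356) and MMRN1, the platelet protein multimerin, rose by 0.99 (adjusted p = 0.039) at dim signals, with means of 224 in resistant and 47.3 in sensitive arrays. The remaining 8 were not called. Of the genes around ABCA2 on chromosome 9, 1 of 10 was called, FUT7, a fucosyltransferase of selectin ligands (log2 difference -1.07, adjusted p = 0.0317), and around ABCC10 on chromosome 6 none of 10 was. Over all 8226 genes measured 8.4% were called, and nothing is read from counts this small. No measured ABC gene lies on chromosome 8.

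**Figure D2:**
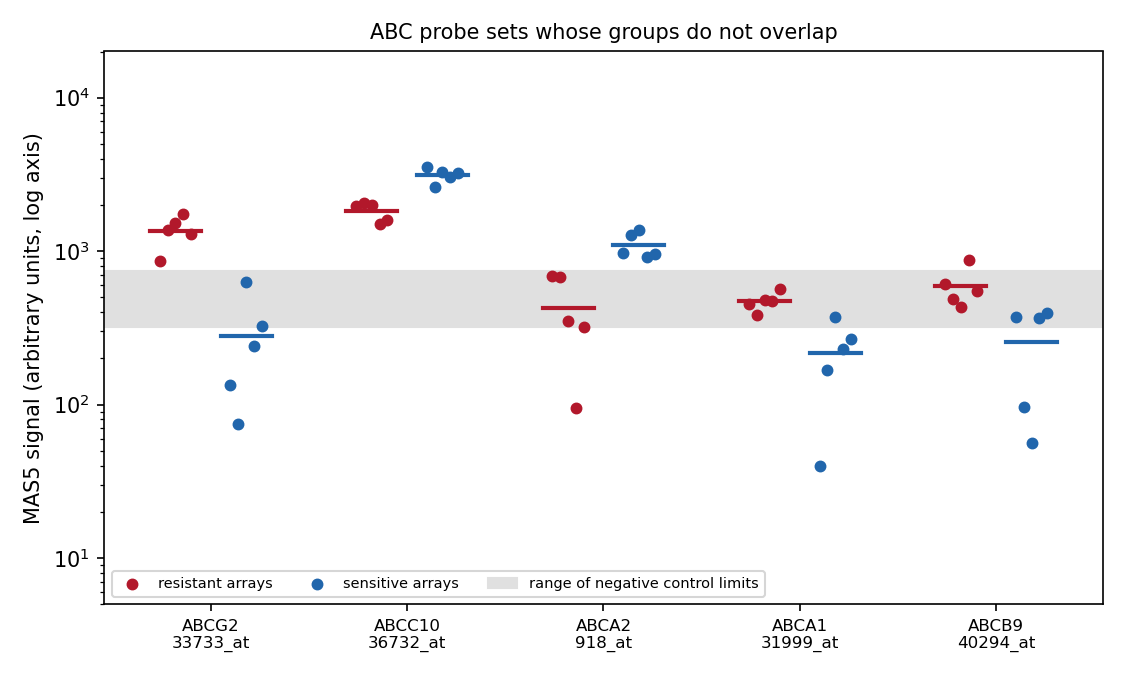
MAS5 signal per array on a log axis for the 5 ABC probe sets whose groups do not overlap, with resistant arrays in red at the left and sensitive arrays in blue at the right of each pair; bars are group means and the grey band is the range of the background limits, 319.7 to 739.8. ABCG2 lies above the band in all resistant arrays, ABCC10 is above it in both groups, and most ABCA1 and ABCB9 signals fall within or under it.

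The upstream sequences of the 3 genes with a called probe set are shown because these members carry the differences. They are the 250 bases before a RefSeq transcription start (assembly GRCh38.p14), 5′ to 3′ on the gene's strand. Where several starts are listed, 5 for ABCG2 and 2 each for ABCC10 and ABCA2, the window that overlaps most others was taken, or the first listed. The ABCG2 window is chr4:88158860-88159109 on the minus strand, the ABCC10 window chr6:43427613-43427862 on the plus strand and the ABCA2 window chr9:137028923-137029172 on the minus strand. The motif was chosen after the values of AHR had been seen. Capitals mark GCGTG on either strand (CACGC on the strand shown), the core letters bound by the aryl hydrocarbon receptor, whose gene is described with the regulators further on.
ABCG2: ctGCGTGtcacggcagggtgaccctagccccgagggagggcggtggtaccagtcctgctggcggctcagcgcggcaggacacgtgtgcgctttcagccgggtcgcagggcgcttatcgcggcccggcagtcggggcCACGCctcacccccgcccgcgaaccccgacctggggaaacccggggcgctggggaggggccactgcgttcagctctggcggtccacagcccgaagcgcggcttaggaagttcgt
ABCC10: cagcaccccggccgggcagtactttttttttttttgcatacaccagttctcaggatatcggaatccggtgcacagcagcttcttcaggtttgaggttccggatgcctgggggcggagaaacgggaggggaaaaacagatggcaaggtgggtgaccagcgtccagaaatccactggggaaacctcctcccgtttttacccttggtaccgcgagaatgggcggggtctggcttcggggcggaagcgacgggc
ABCA2: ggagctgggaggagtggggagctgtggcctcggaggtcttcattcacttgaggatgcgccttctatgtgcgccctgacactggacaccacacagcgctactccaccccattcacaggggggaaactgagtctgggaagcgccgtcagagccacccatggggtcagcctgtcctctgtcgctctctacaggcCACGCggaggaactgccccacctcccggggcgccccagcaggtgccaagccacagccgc
The ABCG2 window holds GCGTG at 2 places, the ABCA2 window at 1 and the ABCC10 window at 0. These letters occur in 32.2% of the 34788 distinct windows of all RefSeq starts and in 19 of 36 windows (52.8%) of 25 measured ABC genes that matched the table. Of the listed windows they were in 3 of 5 for ABCG2, 1 of 2 for ABCC10 and 2 of 2 for ABCA2, so the count for ABCC10 depends on the start shown. The GC box letters GGGCGG, bound by SP1, were found on either strand at 2 places in the ABCG2 window, 3 in the ABCC10 window and 0 in the ABCA2 window, against 42.6% of all windows with at least 1 match, and overlapped no GCGTG match. The G and C content was 72.4% in the ABCG2 window, higher than in 84.6% of all windows, 58.0% in the ABCC10 window and 65.2% in the ABCA2 window. A match describes letters and does not show binding.

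The drug pumps of subfamily B gave no called probe set. ABCB1 encodes P-glycoprotein, which exports many natural product drugs. Its probe set 1575_at gave 21.8, 20.6, 20.5, 522.6 and 118.6 in resistant arrays, against 110.0, 92.9, 251.6, 137.1 and 162.6 in sensitive arrays, and all 10 values were under the limits (log2 difference -0.34, adjusted p = 0.752). Resistant replicate 4, the highest value, is also the array with the highest limit, 739.8. The second probe set, 1682_s_at, lay between 56.3 and 407 in resistant and between 58.6 and 179 in sensitive arrays. The probe set shared by ABCB4 and ABCB1, 1576_g_at, lay between 35.8 and 86.3 in resistant and between 47.3 and 288 in sensitive arrays, likewise under the limits. P-glycoprotein transcripts were thus not measurable above background in either line.

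ABCB9, which moves peptides into lysosomes, had separated groups without a call. Its signal was 611.7, 487.5, 433.7, 876.5 and 548.7 in resistant arrays, against 369.8, 96.9, 55.8, 364.7 and 392.5 in sensitive arrays, with 3 resistant arrays and 1 sensitive array above the limit. The log2 difference was 1.04 (95% interval 0.31 to 1.77, adjusted p = 0.0948, limma), and the exact permutation p was 0.00794, the value that separated groups always give. The remaining members of the subfamily were under the limit on every array and were not called. They were the phosphatidylcholine flippase gene ABCB4 (log2 difference -0.62, adjusted p = 0.334), the porphyrin transporter gene ABCB6 (-0.23 and 0.10), the mitochondrial genes ABCB8 (0.29) and ABCB10 (-0.49), and the bile salt export pump gene ABCB11 (-0.03).

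Subfamily C had the most probe sets, 20 for 8 genes, of which 12 passed the limit in 3 or more arrays of a group. ABCC10, a pump that exports taxanes and glucuronide conjugates, was the only one with a called probe set. That probe set, 36732_at, gave 1965, 2059, 2006, 1496 and 1594 in resistant arrays, against 3508, 2632, 3262, 3047 and 3219 in sensitive arrays. The groups were well apart and above the limit throughout. The means were 1824 ± 259 in resistant and 3133 ± 325 in sensitive arrays (SD, n = 5 each), with a log2 difference of -0.75 (SE 0.17, adjusted p = 0.017, limma; exact permutation p = 0.00794). With 1 array left out the adjusted p was between 0.0236 and 0.0485. With the replicate number as a block in limma it was 0.0554, and the call was lost.

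The other probe sets of ABCC10 were not called. Probe set 36731_g_at was 1604 ± 270 in resistant and 1467 ± 394 in sensitive arrays, above the limit on all arrays, with a log2 difference of 0.14 (95% interval -0.32 to 0.60). That interval does not meet the one of 36732_at (-1.12 to -0.38), and the difference between the probe sets was not tested. Probe set 36730_at varied widely among resistant arrays, from 34.6 to 622, against 379 to 820 in sensitive arrays (log2 difference -0.70, adjusted p = 0.457). The mean of the 3 probe sets was not called (log2 difference -0.44, adjusted p = 0.274). The stretch of transcript under each probe set was not analysed here, so which of them describes the gene was not tested.

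**Figure D3:**
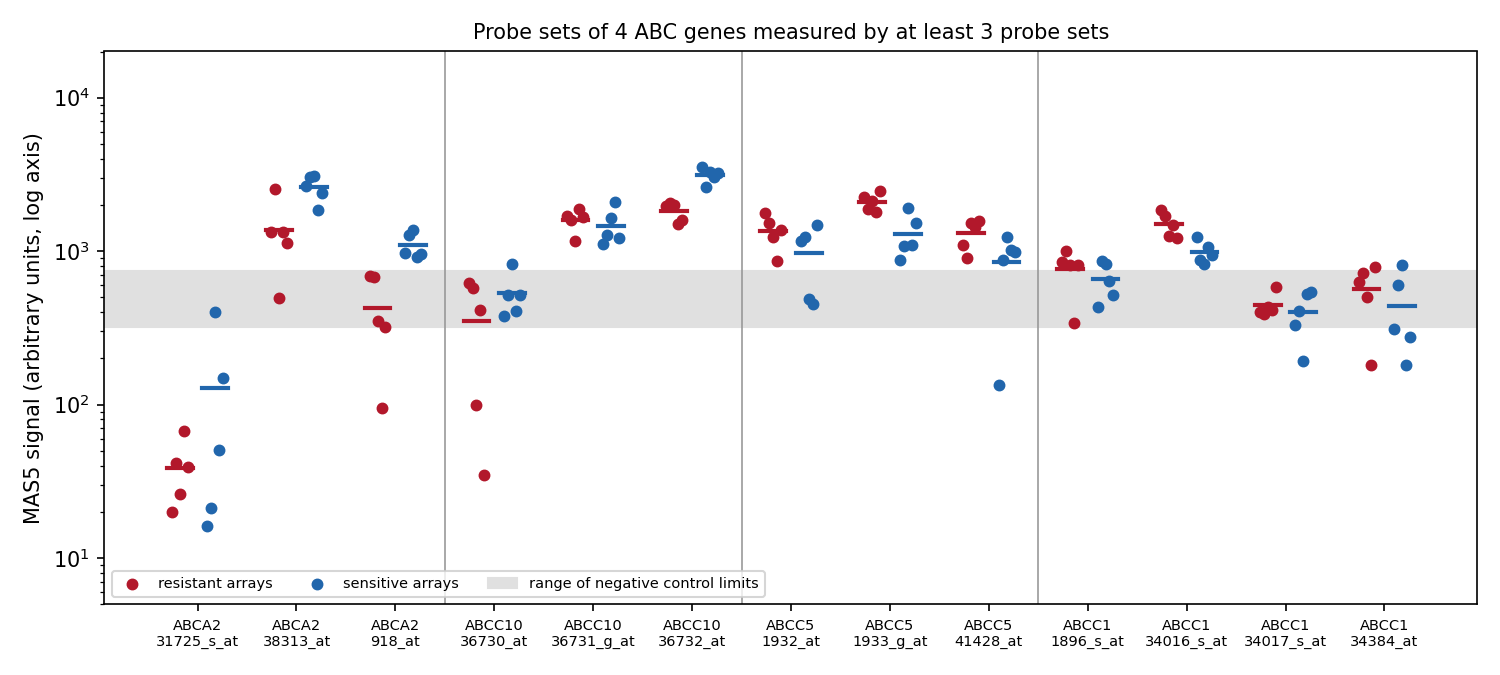
MAS5 signal per array on a log axis for every probe set of ABCA2, ABCC10, ABCC5 and ABCC1, with resistant arrays in red at the left and sensitive arrays in blue at the right of each pair; bars are group means and the grey band is the range of the background limits. ABCC10 separates in 36732_at (1824 against 3133) and not in 36731_g_at (1604 against 1467), whereas the 3 means of ABCC5 are all higher in resistant arrays.

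ABCC5, a pump of cyclic nucleotides and nucleotide analogues, had higher means in resistant arrays in all 3 probe sets, none of them called. Probe set 1933_g_at gave 2254, 1872, 2131, 1793 and 2477 in resistant arrays, against 881.1, 1083, 1912, 1101 and 1516 in sensitive arrays. Only sensitive replicate 3 reached into the range of the resistant arrays. The log2 difference was 0.69 (95% interval 0.22 to 1.16, adjusted p = 0.0868, limma). With 1 array left out, the probe set was called only without sensitive replicate 3 (0.83, adjusted p = 0.0284). It was not called in the other 9 such fits (adjusted p of up to 0.197). In 1932_at the log2 difference was 0.54 and in 41428_at 0.73 (adjusted p = 0.445 and 0.401). The 3 differences stayed positive with arrays scaled to a common median (0.41 to 0.62) and with quantile normalization (0.45 to 0.65). The mean of the 3 probe sets gave 0.65 (adjusted p = 0.078). Probe sets of a gene share their target and are not replicates.

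ABCC1, the first multidrug resistance protein, exports glutathione conjugates and glutathione itself. Probe set 34016_s_at gave 1850, 1695, 1256, 1490 and 1224 in resistant arrays, against 1233, 871.4, 825.5, 1063 and 944.4 in sensitive arrays. Sensitive replicate 1 alone lay within the resistant range, by a narrow margin over resistant replicate 5. The log2 difference was 0.55 (95% interval 0.15 to 0.95, adjusted p = 0.11, limma; exact permutation p = 0.0159). The other 3 probe sets had differences of 0.16, 0.16 and 0.33, with the lowest adjusted p at 0.733, and the mean over the gene was 0.30 (adjusted p = 0.408).

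ABCC4, which exports cyclic nucleotides, prostaglandins and nucleotide analogues, was above the limit on all arrays in both probe sets. Probe set 34955_at gave 1587, 1852, 4481, 1405 and 2173 in resistant arrays, against 964.8, 1196, 1340, 2119 and 2031 in sensitive arrays. The groups overlapped, and resistant replicate 3 stood above all other arrays (log2 difference 0.49, 95% interval -0.21 to 1.18, adjusted p = 0.499). The second, 1931_at, was 934 ± 193 in resistant and 905 ± 244 in sensitive arrays (log2 difference 0.06, and -0.06 with arrays scaled to a common median).

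The conjugate pumps of epithelia were at background. ABCC2 gave 11.5, 180.7, 13.3, 41.2 and 24.9 in resistant arrays, against 17.2, 14.2, 12.1, 54.6 and 32.7 in sensitive arrays. ABCC3 probe set 1930_at gave 93.0, 131.9, 392.9, 384.2 and 435.1 in resistant arrays, against 164.0, 210.4, 144.5, 140.1 and 169.3 in sensitive arrays, all of them under the limits although 3 resistant arrays were above every sensitive one (log2 difference 0.41, adjusted p = 0.527). Its other probe set, 38261_at, was lower still, with a difference of -0.01. The sulphonylurea receptor genes ABCC8 and ABCC9, which are regulators of potassium channels, were not called in any of their 5 probe sets (log2 differences -0.04 to 0.57). Of these 5, only 41792_at of ABCC8 passed the limit in 3 or more arrays of a group (693 ± 236 in resistant and 463 ± 217 in sensitive arrays, adjusted p = 0.46).

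In subfamily A, ABCA2 moves lipids in the membranes of lysosomes and has been linked to resistance to estramustine. All 3 of its probe sets had negative log2 differences, and 1 of them was called. Probe set 918_at gave 693.4, 681.1, 351.0, 94.5 and 322.1 in resistant arrays, against 972.6, 1276, 1365, 919.8 and 960.8 in sensitive arrays. The groups did not overlap, and the limit was passed by 2 resistant and all 5 sensitive arrays. The log2 difference was -1.30 (SE 0.34, 95% interval -2.04 to -0.56, adjusted p = 0.0363, limma; exact permutation p = 0.00794). The call was marginal. It was lost without any 1 of the sensitive replicates 1 to 5 or the resistant replicates 3 and 5 (adjusted p of up to 0.0893).

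A second ABCA2 probe set, 38313_at, gave 1339, 2541, 494.6, 1337 and 1131 in resistant arrays, against 2653, 3028, 3107, 1861 and 2377 in sensitive arrays. Resistant replicate 2 alone reached into the sensitive range. The log2 difference was -1.0 (95% interval -1.73 to -0.28, adjusted p = 0.103). With 1 array left out, the probe set was called only without resistant replicate 2 (-1.25, adjusted p = 0.0271). It was not called in the other 9 such fits (adjusted p of up to 0.207). The remaining one, 31725_s_at, was under the limit on all arrays (log2 difference -0.45). The mean of the 3 probe sets was called in a separate limma fit of gene means over 8226 genes (log2 difference -0.92, adjusted p = 0.0327).

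The cholesterol exporter gene ABCA1 had 3 probe sets, none of them called and none above the limit in 3 arrays of a group. In 31999_at the signal was 449.9, 382.8, 477.2, 473.5 and 570.0 in resistant arrays, against 39.5, 167.4, 372.7, 230.7 and 269.4 in sensitive arrays. The groups were narrowly apart, and the limit was passed by 1 resistant array and by 0 of the sensitive ones (log2 difference 0.91, adjusted p = 0.0754). With 1 array left out, the probe set was called only without sensitive replicate 3 (1.08, adjusted p = 0.0334). It was not called in the other 9 such fits (adjusted p of up to 0.16). The other probe sets had differences of -0.47 and -0.18, so the gene's probe sets did not share a direction.

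ABCA3, a phospholipid transporter of lamellar bodies, was above the limit on all 10 arrays. Its signal was 3259, 1807, 2285, 2447 and 2273 in resistant arrays, against 2227, 2362, 2819, 2349 and 2216 in sensitive arrays. The groups overlapped fully (log2 difference -0.01, 95% interval -0.41 to 0.40). The other members, the retinal transporter gene ABCA4, the skin lipid transporter gene ABCA12, and ABCA5, ABCA6 and ABCA8, were not above the limit in 3 arrays of a group and were not called. Their log2 differences ran from -0.06 in ABCA4 to 0.71 in ABCA5, where the signal was 143 ± 141 in resistant and 26.9 ± 21.6 in sensitive arrays (adjusted p = 0.291).

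The members that act in peroxisomes and in translation gave no call. ABCD3, which carries branched and long chain acyl groups into peroxisomes, gave 2570, 4588, 2843, 4459 and 3735 in resistant arrays, against 3492, 3509, 3475, 3600 and 3880 in sensitive arrays. The means differed little, and the resistant arrays spread more widely (log2 difference -0.02, 95% interval -0.45 to 0.41). ABCD2, a transporter of very long chain acyl groups, and ABCD4, which serves cobalamin export from lysosomes, were not above the limit in 3 arrays of a group (log2 differences 0.22 and 0.25).

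ABCE1 splits ribosomes after termination. Its signal was 2388 ± 337 in resistant and 2163 ± 536 in sensitive arrays (log2 difference 0.15, 95% interval -0.28 to 0.59). ABCF1, which binds the initiation factor eIF2, gave 3328, 2353, 2993, 2270 and 2971 in resistant arrays, against 2093, 2403, 3210, 1938 and 2488 in sensitive arrays. The groups overlapped (log2 difference 0.20, 95% interval -0.22 to 0.62). ABCF3 gave 2192, 2675, 2762, 2045 and 1863 in resistant arrays, against 2282, 2027, 2391, 2248 and 2803 in sensitive arrays, again with overlap (log2 difference -0.03, 95% interval -0.42 to 0.35). ABCF2 had a difference of -0.07 (95% interval -0.76 to 0.62). For ABCD3, ABCE1, ABCF1 and ABCF3 the intervals lie within 0.62 of no change on the log2 scale.

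Genes that work with ABC transporters were taken from 7 lists, chosen with earlier results of these data known. For each gene its brightest probe set stood for the gene, and 74 of the listed genes were measured. Of these, 2 rose and 2 fell (5.41%), against 8.4% of the 8226 genes measured on the arrays (4.94% higher and 3.46% lower). Their median log2 difference was 0.01.

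Transcription factors known to control ABC genes held the clearest of these changes, with 1 of 16 called higher and 1 lower. AHR, the aryl hydrocarbon receptor, is a ligand-activated factor for which ABCG2 is a known target gene. Its signal was 1346, 2135, 2271, 1563 and 1451 in resistant arrays, against 250, 421, 342, 838 and 325 in sensitive arrays. The groups did not overlap, and 5 resistant arrays and 1 sensitive array were above the limit (1753 ± 420 in resistant and 435 ± 233 in sensitive arrays, log2 difference 1.82, SE 0.27, adjusted p = 0.00104, limma). ARNT, its dimer partner, was not called (log2 difference -0.15, adjusted p = 0.729). Whether the levels of AHR and ABCG2 are linked was not tested.

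RXRA, the retinoid X receptor that pairs with the liver X receptors to induce ABCA1 and ABCG1, fell in both of its probe sets. The brighter gave 1134, 2101, 1367, 889 and 1202 in resistant arrays, against 7053, 5742, 12151, 4154 and 7374 in sensitive arrays, with the groups well apart (log2 difference -2.31, SE 0.29, adjusted p = 0.000322). RXRB and NR1H3, the liver X receptor alpha gene, were not called (log2 differences -0.14 and 0.41). NFE2L2, which induces several pumps of subfamily C, and its inhibitor gene KEAP1 were not called either (0.01 and 0.48, adjusted p = 0.985 and 0.19).

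**Figure D4:**
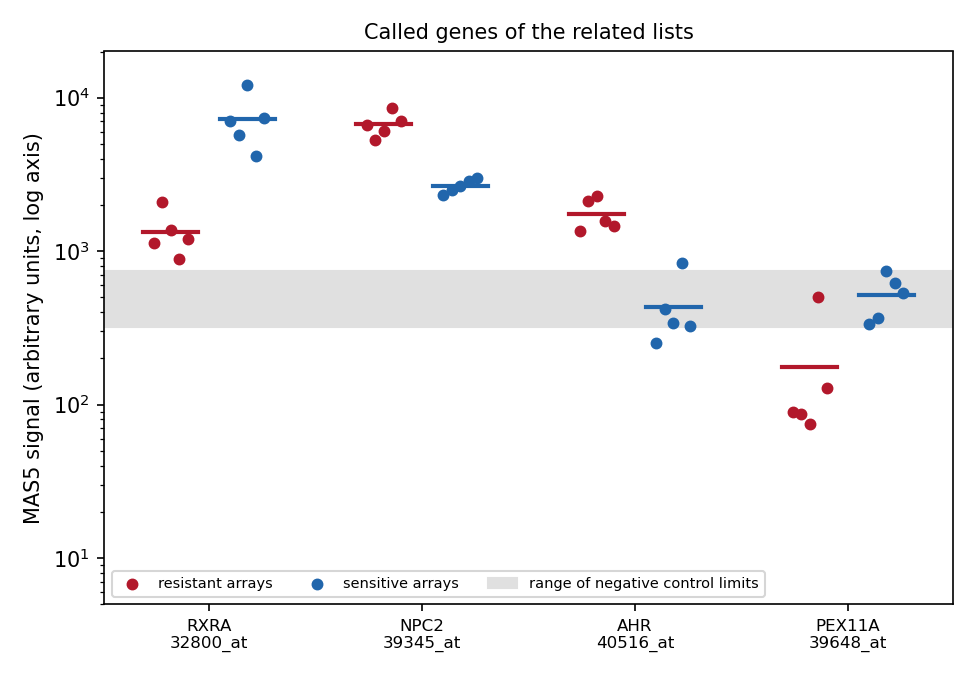
MAS5 signal per array on a log axis for the 4 called genes of the related lists, with resistant arrays in red at the left and sensitive arrays in blue at the right of each pair; bars are group means and the grey band is the range of the background limits. AHR and NPC2 are higher in all resistant arrays, RXRA is lower in all of them, and the groups of PEX11A overlap through resistant replicate 4.

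Among 9 sterol and lipid genes 1 rose, NPC2, a carrier of cholesterol out of lysosomes, which was 6718 ± 1209 in resistant and 2666 ± 279 in sensitive arrays (log2 difference 1.28, adjusted p = 0.000625, limma). Its partner NPC1 was not called in its brighter probe set (log2 difference -0.29) and fell in the other (-0.75, adjusted p = 0.0269). Among 12 peroxisome genes 1 fell, PEX11A, which acts in peroxisome division. Its signal was 89.0, 86.2, 74.3, 505 and 129 in resistant arrays, none of them above the limit, against 336, 364, 740, 623 and 533 in sensitive arrays, 3 of them above it (log2 difference -1.25, adjusted p = 0.0412). That call held only without sensitive replicate 1 or without resistant replicate 4 and was lost without any other single array (adjusted p of up to 0.103).

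None of the genes in the other 4 lists was called by limma in its brightest probe set. These were 7 genes of antigen peptide loading and ABC proteins named otherwise, 11 of haem and iron-sulphur synthesis, 11 of translation and 8 of other multidrug resistance. At an unadjusted p under 0.05 they had 0, 2, 1 and 0 genes higher and 2, 3, 0 and 0 genes lower, where 10.2% of all probe sets were higher and 7.69% lower. The units are unlike, since 82.4% of the brightest probe sets in the 7 lists passed the limit in 3 or more arrays of a group, against 58.5% of all probe sets. Of all probe sets that passed it in this way, 24.6% had an unadjusted p under 0.05 in either direction (limma). For TAP1 and TAP2, ABC transporters of antigenic peptides whose symbols lie outside the rule, the log2 differences were -0.34 and 0.14 (adjusted p = 0.659 and 0.868). CALR, the loading chaperone calreticulin, had a difference of -0.66 in its brighter probe set (adjusted p = 0.0899) and fell in the other (-1.18, adjusted p = 0.00623). CFTR, the chloride channel of the family, was under the limit on all arrays. MVP, the major vault protein known as a lung resistance protein, was 285 ± 241 in resistant and 389 ± 249 in sensitive arrays (log2 difference -0.39, adjusted p = 0.741). ALAS1 and PPOX, enzymes of haem synthesis, were at the edge of the threshold with differences of -0.73 and -0.70 (adjusted p = 0.0531 and 0.0501).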

How the data were processed

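Signals from 10 arrays were analysed. The authors deposited MAS5 signals, an intensity on a linear scale for each of 12625 probe sets and array, per the submitters' processing notes, and the settings are not given there. The 67 control probe sets were left out of tests, which leaves 12558. Probe sets were named from the platform annotation and updated by Entrez identifier to the RefSeq gene table of GRCh38.p14; 10943 carry 1 symbol, 545 several and 1070 none.

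Each array was scaled to the mean 2% trimmed mean, and log2(signal + 114.8), the pseudocount being the 20th percentile of all signals, went into limma 3.58.1 (R 4.3.3; lmFit, then eBayes) without covariates. Adjusted p-values are from this fit over 12558 probe sets unless another test or setting is named. Those of a mean over the probe sets of a gene are from a separate limma fit over 8226 genes. Log2 differences understate changes of dim probe sets. The number of arrays limits the precision. A bound ("at least") divides the geometric mean of the brighter group by that of, per dim array, the higher of limit and signal.

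Per-array values are given for ABC probe sets that were called or did not overlap, the drug pumps, the 5 brightest, and the 5 of largest difference among those above the limit. The members and lists were chosen with earlier results of these data known. Alternatives were other pseudocounts, scalings, filters and variance models, the replicate number as a block, exact permutation, other rules for genes and limits, and each array left out.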

Additional observations from a re-analysis of the deposited data

Results flagged for a closer look

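Each of the 52 ABC probe sets was checked in both groups for 1 array far from the other 4. Dixon's ratio was used on the scale of the tests, log2(signal + 114.8). Of 104 groups of 5 arrays, 16 had such an array. Chance gives about 1 in 20 only where values are normally distributed, which was not tested for these signals. The share of flagged groups over all probe sets is not given, so no excess is read from the count. By array, the 16 were spread as 4 in resistant replicate 5, 3 in resistant replicate 4, 1 in resistant replicate 2, 4 in sensitive replicate 3, 2 in sensitive replicate 1 and 1 each in sensitive replicates 2 and 5.

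Among probe sets above the limit there were 4. ABCC1 1896_s_at was 339 in resistant replicate 4, with the others between 808 and 997. ABCA3 was 2819 in sensitive replicate 3, with the others between 2216 and 2362. ABCC5 41428_at was 134 in sensitive replicate 1, with the others between 872 and 1244. ABCC8 41792_at was 89.5 in sensitive replicate 3, with the others between 498 and 632.

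The other 12 were in probe sets not above the limit in 3 arrays of a group. In resistant arrays, ABCA1 31998_at was 132 and ABCB1 1682_s_at 407 in replicate 4, ABCA6 35390_at was 337, ABCA8 208, ABCB6 39805_at 294 and ABCC1 34017_s_at 584 in replicate 5, and ABCC2 was 181 in replicate 2. In sensitive arrays, ABCA4 was 769 and ABCB11 487 in replicate 3, ABCA6 35389_s_at was 163 in replicate 1, ABCD2 was 162 in replicate 2 and the probe set shared by ABCB4 and ABCB1 was 288 in replicate 5. All 12 values were higher than those of the other arrays of their group.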

How the results depend on the processing

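ABCG2 was called under every alternative fitted with limma (log2 difference 1.40 to 2.50, adjusted p of up to 0.0104). Exact permutation, adjusted over all probe sets, called 0 of 12558, 0 ABC probe sets higher, 0 lower and 0 genes of the related lists, since its smallest p of 0.00794 becomes 0.0934, although 2246 probe sets and 8 of the ABC probe sets had an unadjusted exact p under 0.05; ABCG2 (2.03), ABCA2 918_at (-1.30) and ABCC10 36732_at (-0.75) all had that p, and limma called 931. The pseudocounts at the 10th percentile and of 16 left 1 ABC probe set lower, with ABCA2 918_at at -1.46 and -1.58 (adjusted p = 0.0586 and 0.0817). The pseudocount at the 40th percentile gave 2 ABC probe sets higher and 8 related genes (4 as reported), and a filter on mean signal gave 3 and 8, by adding ABCC5 1933_g_at (0.59 and 0.69) and, with the filter, ABCC1 34016_s_at (0.55). A variance trend gave 10 related genes and added ABCA2 38313_at (adjusted p = 0.0445). With 1 array left out, 1 to 3 ABC probe sets were higher, 1 to 3 lower, 3 to 5 related genes and 691 to 860 probe sets were called, and ABCA2 918_at lay between -1.48 and -1.0. The replicate block left 794 probe sets called and 1 ABC probe set lower, since ABCC10 36732_at (-0.75) had an adjusted p of 0.0554. Same-numbered arrays had deviations correlated at 0.00865 to 0.123, and 4 of 10 arrays correlated best with their own number. The labels state no pairing beyond the number, and these values do not settle whether there was one. By mean of probe sets the 2 genes called were ABCG2 and ABCA2, and by brightest probe set the 2 were ABCG2 and ABCC10 (3 by any probe set). Of the 52 ABC probe sets, 22 passed the limit as reported, 25 with it at the 90th percentile and 20 with it at the highest control. The cause of these changes was not tested. Signals under the limit allow no statement on lowly expressed pumps such as ABCB1.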
